A study of Homo sapiens with 4 samples.

Results

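The regions described here are distal gaps between nucleosomes that were filled or emptied upon MYCN knockdown in BE(2)C neuroblastoma cells. A gap was a stretch of 250 to 5000 bp that no called nucleosome touched in both libraries of a group. Gaps lay on the autosomes, with the midpoint over 2 kb from the transcription start site (TSS) of any protein-coding transcript. A filled gap was empty in both control libraries and held a nucleosome, at least 80% of it inside the gap, in both N-myc kd libraries. An emptied gap was the reverse. There were 29321 filled gaps among 167980 gaps empty in both controls (17.5%), and 19437 emptied gaps among 143813 gaps empty in both N-myc kd libraries (13.5%). These 48758 regions came from 311793 empty gaps, the sum over both groups, in which a stretch empty in both groups counts for each. They were selected on the measured presence or absence of nucleosomes in the same 4 libraries. The counts thus describe the libraries, and no test was run on them.

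BE(2)C, labelled BE2C, is an established human neuroblastoma line with amplified MYCN, the gene that encodes the transcription factor N-MYC. The control group carried the genotype label wild type and received a control siRNA, and the N-myc kd group received an siRNA against MYCN. Both groups were transfected with Lipofectamine 2000 for 6 h at 80 nM siRNA by the labels and were collected the next day. The methods of the study state a lower final concentration of siRNA. Crosslinked chromatin was digested with micrococcal nuclease (MNase), which cuts DNA between nucleosomes, and the protected fragments were sequenced. There were 2 libraries per group, which the methods of the study call biological replicates. The labels do not name separate cultures, so part of the spread between them may be technical. MNase-seq measures nucleosomes and not transcripts, and thus gave no check of the knockdown itself.

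A nucleosome is a short stretch of DNA wound around a core of histone proteins, and it hinders the access of most transcription factors. Stretches without nucleosomes mark active promoters and enhancers, where remodelers and bound factors keep nucleosomes away. Long tracts of A and T also resist wrapping, and MNase cuts AT-rich DNA faster than GC-rich DNA. The study asked how MYCN affects the placing of nucleosomes, and followed nucleosome-free regions that were lost or formed upon knockdown. Enhancer positions were not used here, so the gaps are distal by their distance from genes alone.

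The 4 lists held 10527010 and 12120711 nucleosomes in control replicates 1 and 2, and 10677252 and 12178724 in N-myc kd replicates 1 and 2. Replicate 2 was the deeper of each group, with 242544884 and 239257113 reads in called nucleosomes against 147726171 and 147370973 in replicate 1. The autosomal nucleosome held a median of 13 reads in both replicate 1 libraries and of 19 and 18 reads in control and N-myc kd replicate 2. Nucleosomes with fewer than 6 reads were left out by the authors, so an empty gap is a stretch without any nucleosome of 6 reads or more. No gap is shown to be free of histones at this depth. The methods of the study call occupancy a normalized read count, while the deposited values are whole numbers from 6 up with unequal totals, and they were taken here as unscaled reads.

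Sequences are given for some of the members of at most 300 bp whose new nucleosome had the most reads in the weaker library of the group that held it, since these are the best covered cases. They are the plus strand of GRCh37 (hg19), 5′ to 3′, with the bases of the nucleosome of the deeper library in capitals, cut off at the gap's edge where it ran past it. The filled gaps had no called nucleosome in either control, and the emptied gap had none in either N-myc kd library. The filled gap on chromosome 11 was added after values were seen, since the central 50 bases of its nucleosome occur once in the assembly.
Filled, chr21:10766005-10766286: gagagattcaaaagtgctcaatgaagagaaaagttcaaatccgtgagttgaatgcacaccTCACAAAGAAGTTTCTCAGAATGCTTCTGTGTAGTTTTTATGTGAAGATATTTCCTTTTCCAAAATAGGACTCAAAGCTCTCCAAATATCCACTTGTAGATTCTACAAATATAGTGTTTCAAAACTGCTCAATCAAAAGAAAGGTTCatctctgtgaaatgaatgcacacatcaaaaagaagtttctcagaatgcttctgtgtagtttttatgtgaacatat
Filled, chr17:43596016-43596272: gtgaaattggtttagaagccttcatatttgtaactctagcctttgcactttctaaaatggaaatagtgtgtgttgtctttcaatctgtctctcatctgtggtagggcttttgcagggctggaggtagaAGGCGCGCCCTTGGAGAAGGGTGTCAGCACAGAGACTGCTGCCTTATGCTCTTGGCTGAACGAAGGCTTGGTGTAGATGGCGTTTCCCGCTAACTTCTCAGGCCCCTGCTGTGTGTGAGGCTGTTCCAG
Emptied, chr4:49322891-49323146: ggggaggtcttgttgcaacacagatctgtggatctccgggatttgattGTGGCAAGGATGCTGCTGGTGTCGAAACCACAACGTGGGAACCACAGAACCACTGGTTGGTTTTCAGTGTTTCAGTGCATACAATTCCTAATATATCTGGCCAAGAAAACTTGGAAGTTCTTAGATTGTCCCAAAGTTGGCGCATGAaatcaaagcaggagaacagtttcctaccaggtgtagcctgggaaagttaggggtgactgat
Filled, chr11:77053255-77053547: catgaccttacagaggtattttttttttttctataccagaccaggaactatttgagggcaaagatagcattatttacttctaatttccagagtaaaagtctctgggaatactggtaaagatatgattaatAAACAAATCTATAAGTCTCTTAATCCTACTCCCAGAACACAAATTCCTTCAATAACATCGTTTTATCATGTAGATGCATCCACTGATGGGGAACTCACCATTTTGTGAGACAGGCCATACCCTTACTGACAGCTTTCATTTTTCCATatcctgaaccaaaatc

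These regions differ in their setting. The gap on chromosome 21 is intergenic, 225 kb from the TSS of TPTE, and held 50 and 54 reads in N-myc kd replicates 1 and 2. Its GC content was 34.0%, and the 2 libraries placed the dyad, the centre of the nucleosome, 78 bp apart. The central 50 bases of its nucleosome occur once in the assembly. Part of the gap's sequence nevertheless lies in it 2 times, first in capitals and again near the gap's end, so the gap holds repeated sequence. The gap on chromosome 17 lies in LRRC37A4P, a transcribed pseudogene, and held 45 and 55 reads upon knockdown with the dyads 2 bp apart. The central 50 bases of its nucleosome occur 2 times in the assembly.

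The emptied gap on chromosome 4 is intergenic, 334 kb from the TSS of CWH43, and held 47 and 59 reads in control replicates 1 and 2. The dyads were 11 bp apart, and its central 50 bases occur 2 times. The added gap on chromosome 11 lies in an intron of PAK1, a serine/threonine kinase that regulates the cytoskeleton, and held 22 and 30 reads upon knockdown. Within 5 kb of the gap on chromosome 4, control and N-myc kd had 10619 and 10627 reads in replicate 1, and 13377 and 13178 in replicate 2. Around the gap on chromosome 21 these numbers were 2285 and 2402, and 3225 and 3537. The neighbourhood of either gap was thus covered in all 4 libraries, but far more deeply than is usual for members. Over all filled gaps the medians were 306 and 542 reads in control replicates 1 and 2, and over all emptied gaps 299 and 533. These 2 gaps are therefore not typical of their sets.

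More gaps were filled than emptied. For each emptied gap 1.51 gaps were filled. The crossed grouping, which sets control 1 and N-myc kd 2 against control 2 and N-myc kd 1, gives the noise of the same libraries, since each side holds 1 library of either group and of either depth. It gave 24033 gaps of 151582 (15.9%) in its first direction and 23494 of 158749 (14.8%) in the reverse, a ratio of 1.02. The share of empty gaps filled upon knockdown, 17.5%, was thus above both crossed shares, and the share emptied, 13.5%, was below both. Both crossed directions together held 47527 gaps, against 48758 for the groups. With 1 library in place of 2 on one side the directions are no longer judged alike, and the ratio was 18.9 without control replicate 2 and 0.0882 without N-myc kd replicate 2.

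The ratio was the same at both replicate numbers when single libraries were compared. Replicate 1 alone gave 585782 filled and 511298 emptied gaps, and replicate 2 alone gave 220221 and 190864, with a ratio of 1.15 in each. Of the gaps empty in both controls, 37.7% were empty in all 4 libraries, 38.5% were filled in N-myc kd replicate 2 only and 6.36% in N-myc kd replicate 1 only. Of those empty in both N-myc kd libraries, 37.0% were filled in control replicate 2 only, 5.81% in control replicate 1 only and 43.7% in neither. The deeper library of each group therefore filled most gaps that only 1 library filled.

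The new nucleosomes were weak. In filled gaps the nucleosome had a median of 7 reads (quartiles 6 and 9, highest 50) in N-myc kd replicate 1 and of 9 reads (quartiles 8 and 12, highest 78) in replicate 2. In emptied gaps it had a median of 7 reads (quartiles 6 and 8, highest 73) in control replicate 1 and of 9 reads (quartiles 7 and 12, highest 132) in replicate 2. These medians stood against 13 to 19 reads for all autosomal nucleosomes. In replicate 1, 34.0% of the new nucleosomes of filled gaps and 35.3% of those of emptied gaps had exactly 6 reads, the lowest count that was kept, against 6.26% and 6.39% of all nucleosomes of those libraries. At most 4.45% of the new nucleosomes of filled gaps and 3.59% of those of emptied gaps reached the median of their library.

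Both sets resembled the crossed sets in strength, whose medians were 7 reads in replicate 1 and 9 or 10 in replicate 2. Fuzziness, the SD of read midpoints around the dyad, had a median of 34.2 and 35.2 bp in filled gaps and 34.1 and 35.1 bp in emptied gaps, against 35.2 and 36.5 bp for all nucleosomes of replicates 1 and 2. The 2 libraries that held the nucleosome placed its dyad a median of 45 bp apart in filled and in emptied gaps, and 44 and 46 bp apart in the crossed sets. Dyads were within 73 bp of each other in 64.5% of filled and 65.6% of emptied gaps. A single nucleosome lay in the gap in 94.3% and 81.3% of filled gaps in N-myc kd replicates 1 and 2, and in 95.4% and 84.5% of emptied gaps in control replicates 1 and 2.

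Members were sorted by the lower read count of the 2 libraries that held the nucleosome. At 10 reads or more, 2911 filled and 1846 emptied gaps were left, 1.58 to 1, while the crossed sets were at 1. At 15 or more there were 208 and 164 gaps, with a ratio of 1.27 against 0.784. At 20 or more there were 36 and 34, with a ratio of 1.06 against 0.826. Among members whose central 50 bases occur once in the assembly, there were 175 and 126 at 15 or more, with a ratio of 1.39 against 0.758, and 23 and 24 at 20 or more, with 0.958 against 0.806. Few gaps were filled or emptied by a well covered nucleosome. Of the members at 20 reads or more, 13 of 36 filled and 10 of 34 emptied gaps had central 50 bases that occur more than once in the assembly, a higher share (36.1% and 29.4%) than among all members (6.28% and 7.95%).

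**Figure D1:**
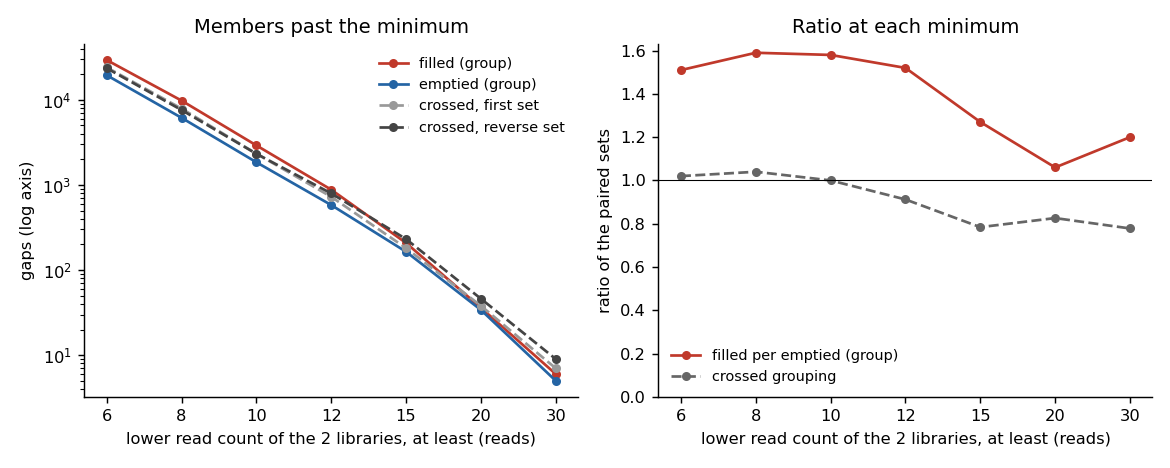
The left panel plots the number of gaps (log axis) whose new nucleosome had at least the given lower read count in the 2 libraries holding it, for filled, emptied and the 2 crossed sets, and the right panel plots the ratio of the paired sets. The group ratio lies between 1.51 and 1.59 up to 12 reads and is 1.06 at 20 reads, where 36 and 34 gaps are left, while the crossed ratio runs from 1.02 at 6 reads to 0.778 at 30 reads.

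The gaps were AT-rich, and filled gaps more so than emptied gaps. Median GC was 29.5% (quartiles 26.8% and 32.8%) in filled gaps and 30.4% (quartiles 27.5% and 34.4%) in emptied gaps, a difference of -0.97 percentage points. This difference was -1.72 with at least 10 reads in every library, -2.35 with at least 10 reads for the new nucleosome only and -0.64 as the mean over same-numbered libraries. Leaving out a library, which makes the demands on the 2 directions unequal, gave 3.97 without control replicate 1, 2.27 without control replicate 2, -5.63 without N-myc kd replicate 1 and -3.86 without N-myc kd replicate 2. In the crossed grouping the medians were 29.8% and 29.9%, and they differed by -0.06. All gaps empty in both controls had a median of 27.9%, and all those empty in both N-myc kd libraries had a median of 28.0%, so that members in both directions were less AT-rich than the gaps they were drawn from. CpG dinucleotides were rare, at a median of 0.323 and 0.35 per 100 bases, and 28.5% of filled and 26.8% of emptied gaps had none.

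From 20% GC upward, the ratio of filled to emptied gaps fell as GC rose. Under 20% GC there were 123 filled and 62 emptied gaps, a ratio of 1.98. Between 20% and 25% GC there were 3288 filled and 1569 emptied gaps, a ratio of 2.1. Between 25% and 30% GC, the class with the most members, there were 12667 and 7343, a ratio of 1.73. It was 1.44 between 30% and 35%, 1.11 between 35% and 40% and 1.05 between 40% and 45%. At 45% GC or more the direction turned, with 587 filled and 834 emptied gaps and a ratio of 0.704. The crossed ratio was between 0.941 and 1.03 from 20% to 45% GC, and 1.23 and 1.2 in the classes below and above. At 45% GC or more, the share of empty gaps that were filled was 9.29% against 12.4% for those that were emptied, and the crossed shares were 11.4% and 9.92%.

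**Figure D2:**
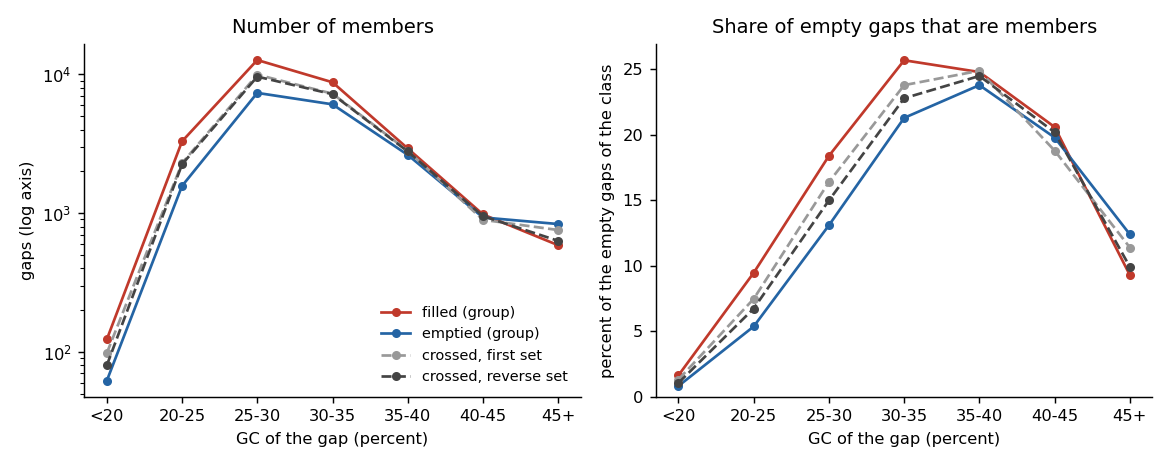
Gaps are grouped by their own GC content (x axis, percent), with the number of members on a log axis on the left and members as a percent of the empty gaps of that class on the right, for filled, emptied and the 2 crossed sets. Filled gaps lie above the crossed sets and emptied gaps below them up to 35% GC, and the order of filled and emptied is turned at 45% GC or more (9.29% and 12.4% of the empty gaps).

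The libraries themselves differed in base composition in the same direction. Over all autosomal nucleosomes, those of 20% to 25% GC held 0.164% and 0.488% of the reads in control replicates 1 and 2, and 0.205% and 0.556% in N-myc kd replicates 1 and 2. Those of 60% GC or more held 7.17% and 6.41% in the controls and 6.63% and 6.11% upon knockdown. On the log2 scale the share of reads upon knockdown over control was 0.32 and 0.19 for replicates 1 and 2 in the 20% to 25% class, 0.02 and 0.01 in the 40% to 45% class, and -0.11 and -0.07 at 60% or more. The slope had the same direction at both replicate numbers. Mean GC weighted by reads was 46.72% and 45.85% in the controls and 46.32% and 45.55% upon knockdown.

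Thinning the read counts so that all 4 lists had the same total within each 5% class of nucleosome GC, with the minimum of 6 reads applied again, removed the excess of filled gaps. This alternative was chosen after the data were seen. There were then 84525 filled and 88800 emptied gaps, a ratio of 0.952, against 0.929 in the crossed grouping, and the difference in median GC was 0.05 percentage points against 0.09. Filled gaps outnumbered emptied gaps on 1 of 22 autosomes, compared with 22 of 22 before, and the first crossed set outnumbered the reverse set on 0 of 22. Thinning to equal totals of reads in called nucleosomes without regard to GC, called equal depth here, kept the ratio at 1.49, with 98599 filled and 66038 emptied gaps, and kept all 22 autosomes. Reads under the minimum were not in the lists, so the true depths could not be matched. After the minimum was applied again, control replicates 1 and 2 held 143093715 and 137598644 reads at equal depth, and 140807221 and 134053294 with equal depth in every GC class. The thinning by GC takes away any difference between the groups in reads from AT-rich sequence, whatever its source. Whether the shift in base composition came from the knockdown, from digestion or from library preparation cannot be told apart with these libraries.

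**Figure D3:**
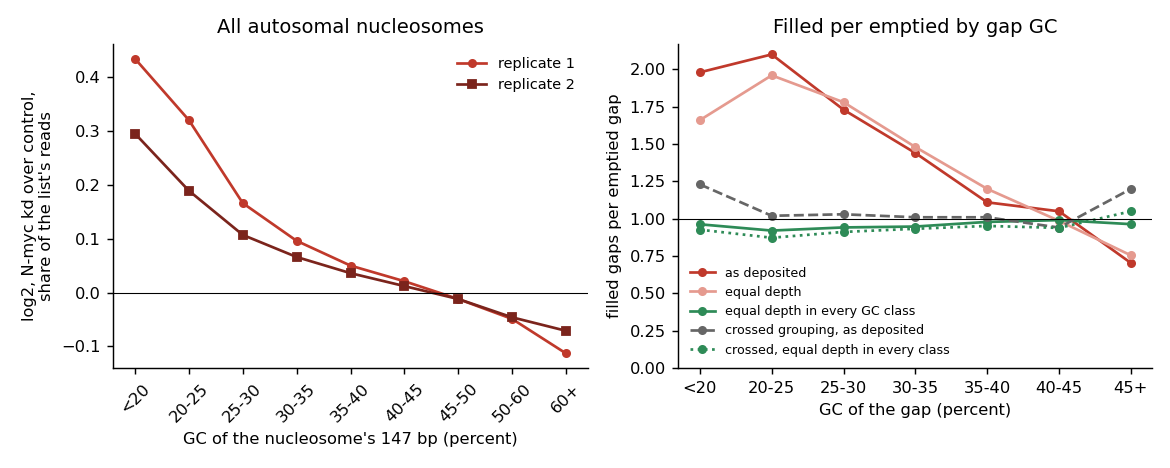
The left panel plots, by GC class of the nucleosome, the log2 of the share of a list's reads in N-myc kd over control at each replicate number, and the right panel plots filled per emptied gap by GC class of the gap as deposited, at equal depth and at equal depth in every GC class, with the crossed grouping. The share of reads runs from above 0 in AT-rich classes to below 0 in GC-rich ones in both replicates, and the ratio of 2.1 at 20% to 25% GC becomes 0.921 once every GC class has equal depth.

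Most gaps were short. The median length was 348 bp (quartiles 290 and 435 bp) in filled gaps and 337 bp (quartiles 285 and 420 bp) in emptied gaps, and 340 and 342.5 bp in the crossed sets. Gaps of 1 kb or more made up 1.01% and 0.972% of members. The ratio of filled to emptied gaps rose with length, from 1.37 under 300 bp through 1.63 between 400 and 500 bp to 1.84 between 700 and 1000 bp, and was 1.56 at 1 kb or more, while the crossed ratio stayed between 0.988 and 1.07. With equal depth in every GC class, filled gaps were 2 bp longer in the median than emptied gaps, against 11 bp as deposited.

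At the limits of the rule the values changed little. Gaps too short to count by at most 10 bp were filled in 2590 of 21628 cases (12%) and emptied in 1944 of 19232 (10.1%). Gaps less than 10 bp above the limit were filled in 2132 of 18101 cases (11.8%) and emptied in 1681 of 16234 (10.4%). Within the gaps, 2472 would have been filled at 75% inside but not at 80%, and 2278 were filled at 80% but not at 85%. For emptied gaps these numbers were 1738 and 1672.

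Far from the new nucleosome, libraries of the same replicate number were alike. The mean reads of dyads per 25 bp, 500 to 1000 bp away from the new dyad of filled gaps, were 0.82 in control and 0.842 in N-myc kd replicate 1, and 1.46 and 1.48 in replicate 2. Around emptied gaps they were 0.832 and 1.47 in the controls and 0.847 and 1.48 upon knockdown. Reads were also compared in the bins centred 162.5 to 212.5 bp from the dyad of the deeper library. There the libraries that held the new nucleosome had more reads, most clearly in replicate 2. Nearer the dyad the order was turned in replicate 2. In the bin centred 137.5 bp from the dyad of filled gaps, towards higher coordinates, control replicate 2 had 0.950 reads and N-myc kd replicate 2 had 0.167. In the bin centred 187.5 bp from the dyad of filled gaps, towards higher coordinates, the mean was 1.48 reads in control and 2.02 in N-myc kd replicate 2, and 0.752 and 0.939 in replicate 1. In emptied gaps the order was turned, with 2.13 in control and 1.61 in N-myc kd replicate 2, and 0.953 and 0.817 in replicate 1. The crossed sets showed the same pattern in this bin. Their first set had 1.99 reads in control and 1.49 in N-myc kd replicate 2, and the reverse set had 1.48 and 2.07. Each set was chosen to hold a nucleosome in 2 libraries and none in the others. The differences beside it therefore cannot be read as a change in neighbours upon knockdown. Within 75 bp of the dyad the libraries that chose the gap held 5.36 and 10.3 reads in filled gaps and 5.42 and 10.2 reads in emptied gaps, and the others had no called nucleosome by the rule. Where a gap was empty, the nearest dyad was a median of 235 and 196 bp from the new one in control replicates 1 and 2, and 227 and 192 bp away in N-myc kd replicates 1 and 2. The nearest neighbours were weak too, with medians of 9.5 reads in replicate 1 and 13 or 13.5 reads in replicate 2 in both sets.

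**Figure D4:**
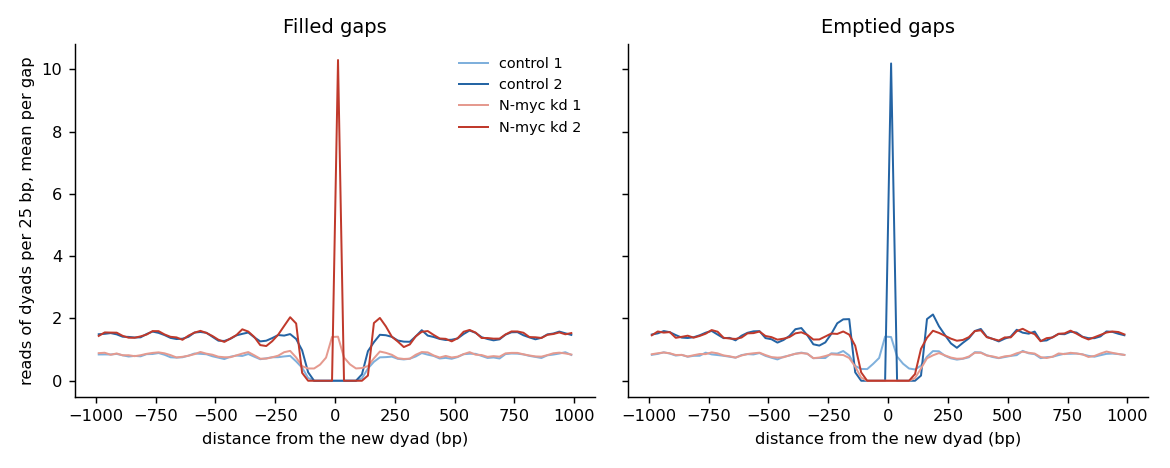
Mean reads of dyads per gap in bins of 25 bp (y axis) are plotted by distance from the new dyad of the deeper library (x axis, bp) for each of the 4 libraries, in filled gaps on the left and emptied gaps on the right. The lines of a replicate number stand apart about 200 bp from the dyad and lie together farther out, at 0.82 to 0.847 reads in replicate 1 and 1.46 to 1.48 reads in replicate 2 between 500 and 1000 bp.

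Reads within 5 kb of the gap did not set filled and emptied gaps apart. Filled gaps had a median of 306 and 542 reads in control replicates 1 and 2 and of 311 and 541 upon knockdown, and for emptied gaps the medians were 299 and 533 reads with the control siRNA and 303 and 534 upon knockdown. Knockdown over control, at equal list totals, was a median log2 of 0.03 in each set. The base composition around the dyad showed a dip. GC was 32.3% within 73 bp of the dyad of filled gaps, 35.3% at 150 to 350 bp and 36.9% at 500 to 1000 bp. In emptied gaps it was 33.7%, 36.6% and 37.8%.

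By the genic place of the gap's midpoint, members followed the empty gaps. Of filled gaps, 11925 (40.7%) were intergenic and 11550 (39.4%) lay in introns of protein-coding genes. A further 5224 (17.8%) lay in other genes such as noncoding RNA genes and pseudogenes, and 622 (2.12%) in an exon of a protein-coding gene. Gaps that reach an exon with another part than the midpoint are not among these. Emptied gaps were intergenic in 7701 cases (39.6%), intronic in 7888 (40.6%), in other genes in 3366 (17.3%) and exonic in 482 (2.48%). Of all gaps empty in both controls 41.4% were intergenic, 38.6% intronic, 18.0% in other genes and 1.99% exonic. Filled per emptied gap ran from 1.29 in exons and 1.46 in introns to 1.55 in intergenic sequence, and the median GC of filled members was 29.8%, 29.9% and 29.1% there. The midpoint was a median of 105 kb from the nearest protein-coding TSS in filled gaps and 89.1 kb in emptied gaps.

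Among the protein-coding genes that held the most members were long genes on chromosomes 2 and 4. LRP1B, a large endocytic receptor of the LDL receptor family, spans chromosome 2 from 140988992 to 142888585 and led both directions with 110 filled of 682 and 71 emptied of 596 empty gaps. It held 116 and 93 crossed gaps. DPP10, a partner of voltage-gated potassium channels, held 73 filled of 429 and 47 emptied of 350 empty gaps (chromosome 2, 115199876 to 116603356), against 61 and 54 crossed gaps. CCSER1 held 69 filled of 438 and 42 emptied of 403 empty gaps (chromosome 4, 91048545 to 92526446), against 74 and 48. In LRP1B and CCSER1 the first crossed set outnumbered the filled gaps.

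Gene lists were set beside all 19229 protein-coding genes, in whose bodies 12172 of 68201 gaps empty in both controls were filled (17.8%) and 8370 of 59130 gaps empty in both N-myc kd libraries were emptied (14.2%). Long neuronal adhesion and synapse genes held 803 filled and 544 emptied gaps, 17.1% and 13.8% of their empty gaps. Of these 40 genes, 34 had more filled than emptied gaps and 2 had more emptied, CTNNA2 (42 and 44) being the one with the most members. Filled per emptied gap was 1.48 in the list, close to the 1.45 over all protein-coding genes. In the crossed grouping the list held 695 and 614 gaps, 16.6% and 14.1% of its empty gaps. There 19 genes had more of the first set and 17 more of the reverse set. Neuroblastoma risk and driver genes held 68 filled and 48 emptied gaps, that is 17.5% and 14.2%. PTPRD, a receptor tyrosine phosphatase deleted in some neuroblastomas, held 14 filled and 6 emptied gaps, against 10 and 16 crossed gaps. NF1, a negative regulator of RAS, held 7 filled of 60 and 5 emptied of 52 empty gaps, against 11 and 5 crossed gaps. ALK, a receptor tyrosine kinase mutated in neuroblastoma, held 0 of 8 and 2 of 9, against 1 and 1.

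The 21 adrenergic core transcription factors, which set the sympathetic identity of most neuroblastomas, held 16 filled and 18 emptied gaps, 19.8% of 81 and 26.9% of 67 empty gaps. Members lay in 5 of these genes, with 6 and 7 in MEIS1, 5 and 7 in EYA1, 4 and 1 in PBX3, 1 and 2 in MEIS2 and 0 and 1 in ZNF536. Double-strand break and crosslink repair genes held 26 filled and 25 emptied gaps, 20.6% of 126 and 23.4% of 107. RIF1, which steers the choice of repair pathway, held 4 filled of 18 and 4 emptied of 22 empty gaps, against 5 and 2 crossed gaps. WRN, a RecQ helicase, held 4 of 14 and 1 of 11, against 4 and 2 crossed gaps. XRCC4, a partner of the ligase in end joining, held 3 of 16 and 3 of 17, against 5 and 5. The crossed grouping gave 26 and 24 gaps in the repair genes and 13 and 12 in the adrenergic factors. These 2 lists held few members, and no test was run on them.

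Among the members with the highest lower read count, 1 further filled gap lay in an lncRNA gene on chromosome 1 from 148938161 to 148938477, with 42 and 76 reads upon knockdown. The fifth filled gap lay in an intron of ENSG00000188897 on chromosome 16 from 11519900 to 11520157, with 31 reads in each N-myc kd library, and its central 50 bases occur 30 times. For emptied gaps the strongest lay in the pseudogene REXO1L3P on chromosome 8 from 86568128 to 86568396, with 73 and 91 reads in the controls and 12 copies of those bases. Others were on chromosome 4 from 49532223 to 49532597 (46 and 68 reads) and on chromosome 19 from 8889474 to 8889863 (39 and 128 reads), both intergenic, with 5 and 7 copies.

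Some members with many reads lay in sequence that occurs once, and these were picked out after values were seen. A filled gap in an intron of PTPRH, a receptor tyrosine phosphatase, lay on chromosome 19 from 55703649 to 55703904 and held 25 and 31 reads upon knockdown with the dyads 3 bp apart. In an intron of PCCA, a subunit of propionyl-CoA carboxylase, a filled gap on chromosome 13 from 101102514 to 101102815 held 23 and 27 reads. A filled gap in an intron of DNAH3, an axonemal dynein, on chromosome 16 from 20991467 to 20991827 held 23 and 24 reads at 24.9% GC. An emptied gap in an intron of KIF26B, a kinesin family member, lay on chromosome 1 from 245478062 to 245478330 and held 25 and 48 reads in the controls. An emptied intergenic gap 247 kb from the TSS of IRX3, on chromosome 16 from 54567731 to 54568122, held 24 and 31 reads with the dyad at the same base in both controls.

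The longest members lay in poorly covered sequence. The longest filled gap, of 4869 bp on chromosome 1 from 25599106 to 25603974, lay in introns of RHD and RSRP1 and held 6 reads in each N-myc kd library. RHD encodes the Rh blood group D antigen and has a close paralogue, and the bases of this nucleosome occur 2 times. The next filled gaps were 4002 bp in an intron of CCSER1, with 6 and 8 reads, and 3871 bp on chromosome 9 from 44616809 to 44620679, with 6 reads in each. The longest emptied gap was 4454 bp on chromosome 8 from 7942473 to 7946926, in an lncRNA gene, with 8 and 7 reads in the controls. The next emptied gaps, of 4430 and 3510 bp, were intergenic on chromosome 9 and held 8 and 8 reads, and 6 and 9 reads.

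Members were unevenly spread along chromosomes, as were the empty gaps. In 2640 windows of 1 Mb the mean number of filled gaps was 10.8 and the highest 74, and 132 windows had none. The tenth of windows with the most members held 39.0% of filled gaps and 40.8% of emptied gaps, against 38.3% and 39.6% for the empty gaps of each kind. For the crossed sets this share was 39.5% and 39.3%. The window with the most filled gaps, on chromosome 2 from 156000001 to 157000000, had 74 filled and 29 emptied gaps and 62 and 51 crossed gaps at 34.7% GC. The window with the most emptied gaps, on chromosome 9 from 39000001 to 40000000, had 66 emptied and 71 filled gaps and 66 and 72 crossed gaps. Both windows were picked for their counts.

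Filled and emptied gaps were intermixed. The nearest other filled gap was a median of 15.9 kb from a filled gap, and the nearest emptied gap 23.9 kb away. From an emptied gap the nearest filled gap was a median of 15.1 kb away and the nearest other emptied gap 22.7 kb, so that the more numerous set was the nearer one in both cases. In the crossed grouping these distances were 19.2 and 19.1 kb from the first set and 18.7 and 19.4 kb from the reverse set. Runs of 5 or more members at most 10 kb apart numbered 188 for filled gaps and 49 for emptied gaps, and 84 and 85 in the crossed sets. The sets differ in size, with 29321, 19437, 24033 and 23494 members in this order. The numbers of runs were not adjusted for that and do not show that filled gaps cluster more. The longest run held 11 filled gaps, and the longest run of a crossed set held 11 too.

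By chromosome, filled gaps outnumbered emptied gaps on each of the 22 autosomes, with ratios from 1.28 on chromosome 1 to 1.76 on chromosome 4. The first crossed set outnumbered the reverse set on 17 of 22, with ratios from 0.95 to 1.24. Chromosome 18 had the most members per Mb, with 36.6 filled and 24.4 emptied gaps, which were 17.8% and 13.6% of its empty gaps, close to the 17.5% and 13.5% of all autosomes. Chromosome 2 followed with 21.9 and 15.4. Chromosome 22 had 2.12 and 1.52. Reads per kb relative to all autosomes, a measure of copy level and coverage, were 0.548 on chromosome 18 and 1.39 on chromosome 22. Across the 22 autosomes, filled gaps per Mb and relative reads per kb had a Pearson and a Spearman correlation of -0.83 each, and the ratio of filled to emptied gaps had a Pearson correlation of -0.08 with relative reads and -0.32 with chromosome GC. These points share the same 4 libraries and are a description. The number of members thus went with coverage, and the part of copy level in it was not tested. Chromosome 2, which carries the MYCN amplicon, stood at 1.03 by reads per kb but at 0.842 by the median read count of its nucleosomes.

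**Figure D5:**
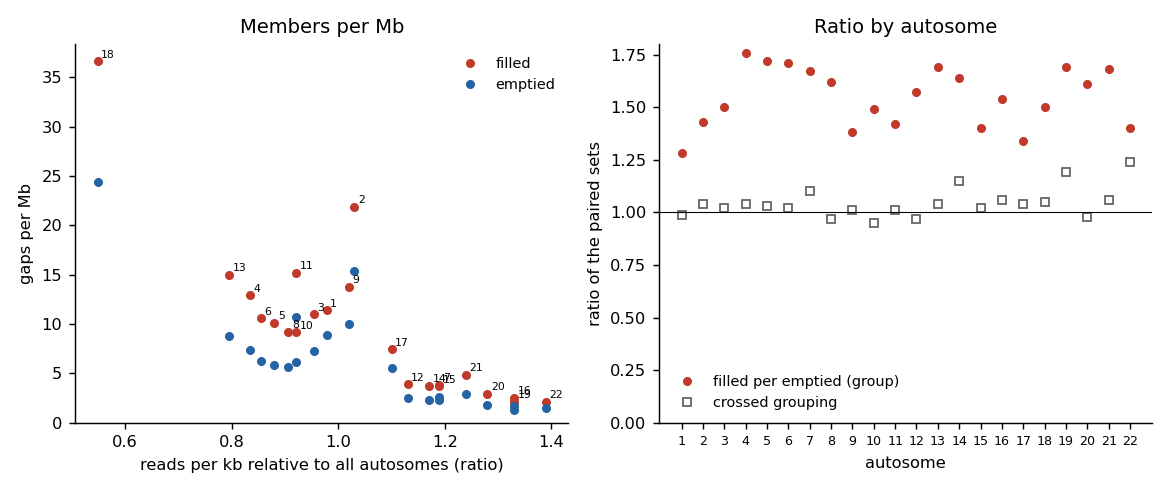
Each point in the left panel is an autosome (numbered), with reads per kb relative to all autosomes on the x axis and filled or emptied gaps per Mb on the y axis, and the right panel gives filled per emptied gap and the crossed ratio for each autosome. Members per Mb run from 36.6 and 24.4 on chromosome 18 to 2.12 and 1.52 on chromosome 22, and each of the 22 group ratios lies above 1.

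The bases under the new nucleosomes were searched for CACGTG, the E-box bound by MYC family proteins, which reads the same on both strands. It occurred under the new nucleosome in 175 filled gaps (0.597%) and 143 emptied gaps (0.736%), and in 0.670% and 0.651% of the crossed sets. Of all distal autosomal nucleosomes of control and N-myc kd replicate 2, whose median GC was 42.2% against 31.3% and 32.0% in the members, 1.49% held it in each. A run of at least 10 A or 10 T occurred under the new nucleosome in 3.76% of filled and 4.10% of emptied gaps. The crossed sets were alike, at 3.6% and 4.08%. Of all distal nucleosomes of those libraries, 3.20% and 3.27% held such a run. The central 50 bases occurred more than once in the assembly in 6.28% of filled and 7.95% of emptied gaps. In the crossed sets this share was 7.22% and 7.0%. Among every 100th distal nucleosome of control and N-myc kd replicate 2 it was 8.14% and 8.16%. In the gaps of each kind that were not filled in both libraries it was 9.59% and 10.4%. Many of those gaps held no nucleosome, so their 50 bases cannot all be the centre of one. These last shares are therefore not measured like those of the members.

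The distal sequence free of nucleosomes was also summed per library, members included. Gaps of 250 to 5000 bp covered 16.6% and 4.73% of 2558 Mb of distal autosomal sequence in control replicates 1 and 2, and 15.3% and 4.26% in N-myc kd replicates 1 and 2. The difference of the group means was -0.882 percentage points (exact permutation test, two-sided, n = 2 per group, p = 0.667), where 0.333 is the smallest p the design allows. The free share was higher in replicate 1 than in replicate 2 of either group, and the groups overlapped. Knockdown minus control was -1.292 points at replicate 1 and -0.472 points at replicate 2. At equal totals of listed reads the controls stood at 16.7% and 16.4% and the N-myc kd libraries at 15.3% and 15.1%. The groups then did not overlap, and the difference was -1.349 points (exact permutation test, two-sided, n = 2 per group, p = 0.333, the smallest possible). With equal totals in every GC class control replicates 1 and 2 stood at 16.7% and 21.6%, N-myc kd replicates 1 and 2 stood at 17.2% and 21.6%, and the difference of 0.238 points (exact permutation test, n = 2 per group, p = 1) was 0.490 at replicate 1 and -0.015 at replicate 2. Leaving out control replicate 1 or N-myc kd replicate 2 also turned the direction, to 5.038 and 4.629 points, since it sets a group of both depths against 1 library.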

How the data were processed

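MNase-seq libraries of BE(2)C cells, 2 control and 2 N-myc kd, were analysed from the nucleosome list of each library, with groups from the sample titles. The submitters' processing notes name CASAVA 1.9, Trim Galore 0.4.4 and Bowtie2 2.2.4 on hg19. By the methods of the study, proper pairs with high mapping quality were kept, duplicates were removed, and Genetrack called nucleosomes from read-pair midpoints. The deposited read count is a whole number per nucleosome, taken here as an unscaled count of midpoints, although the methods call occupancy normalized. The deposited fuzziness is a score that the authors computed as the SD of those midpoints (bp). Each nucleosome spans 147 bp. The lowest count is 6 and the highest 1764 in all 4 lists, so a list's total is not the library depth.

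Gaps were found with Python 3.11.15, numpy 2.4.6 and pandas 2.3.3. A nucleosome counted as inside with at least 118 bp in the gap. Distance ran from the gap's midpoint to the nearest of 75494 TSSs of protein-coding transcripts in GENCODE v44lift37, on GRCh37 with coordinates counted from 1. The finder was tested on simulated data. The exact permutation test used scipy 1.17.1. Regions named were, in each direction, the 5 members with the highest lower read count, the 3 longest, and the 3 protein-coding genes with the most members. Sequences came from the 3 members of at most 300 bp with the highest lower read count. Some regions, sequences and a gene that these rules name are not reported here. The members, classes and gene lists were chosen with earlier results of these data known, and the count of copies of the central 50 bases was added after values were seen. The 4 libraries limit the precision, and intervals were not computed for counts of gaps, which share libraries. Alternatives are given in the closing section.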

Additional observations from a re-analysis of the deposited data

How the results depend on the processing

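Of the alternatives, a longest gap of 2000 bp gave 29289 filled and 19406 emptied gaps. Leaving out gaps with N bases gave 29321 and 19436. With the whole gap over 2 kb from a TSS (added after seeing the data) there were 29248 and 19370. These alternatives left the ratio of filled to emptied gaps and the difference in median GC within the spread of the same-numbered pairs. That spread was small, at an SD of 0.00575 for the ratio of filled to emptied gaps and 0.0327 points for the difference in median GC. Most other settings moved these values by more than that. The spread comes from 2 comparisons of single libraries, each with a ratio of 1.15. It is thus only a yardstick and does not measure the spread of the ratio of 1.51 between replicates. The ratio was 1.44 with 50% of the nucleosome inside, 1.56 with 100%, 1.39 for gaps from 200 bp, 1.69 for gaps from 400 bp, 1.29 with at least 10 reads in every library, 1.58 with at least 10 reads for the nucleosome in the gap only, 1.49 at equal depth, 1.53 over 10 kb from a TSS and 1.54 where the central 50 bases occur once. The difference in GC was, in the same order up to equal depth, -0.89, -1.06, -1.21, -0.88, -1.72, -2.35 and -1.01 points, and -1.05 with dyads at most 73 bp apart. Counts of filled and emptied gaps were 45913 and 31885 at 50% inside, 47468 and 34057 from 200 bp, 9686 and 5737 from 400 bp, 80326 and 62347 with 10 reads in every library, 2911 and 1846 with 10 reads in the gap only, and 98599 and 66038 at equal depth. Equal depth in every GC class turned the direction of the ratio (0.952, from 84525 and 88800 gaps), of the difference in GC (0.05) and of the difference in nucleosome-free share (0.238 points, with 0.490 at replicate 1 and -0.015 at replicate 2). In the 15 settings with a crossed grouping, that ratio lay between 0.929 and 1.06 and below the group ratio.

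With the replicate block, that is 1 library against 1 of the same number, the means were 403002 filled and 351081 emptied gaps, with a ratio of 1.15 and a difference in GC of -0.64 points. The block left the difference in nucleosome-free share at -0.882 points. The reads of replicate 1 over 2 deviated alike in both groups (r 0.97 across 2733 windows of 1 Mb), but the libraries share only a number and a depth by the labels. Leaving out a library makes the demands on the 2 directions unequal by construction. Without control replicates 1 and 2 in turn, and N-myc kd replicates 1 and 2 in turn, filled gaps numbered 100860, 526243, 93914 and 40000, emptied gaps 72637, 27799, 82647 and 453749, the ratio was 1.39, 18.9, 1.14 and 0.0882, the difference in GC 3.97, 2.27, -5.63 and -3.86 points, and that in nucleosome-free share 5.038, -6.803, -6.393 and 4.629 points. Depth limits the calls, since a nucleosome just under 6 reads leaves a gap.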
